A study of Mus musculus with 4 samples.

Results

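The genes described here are 5 neurotrophin pathway genes, the ligands Bdnf and Ntf3 and the receptors Ntrk2, Ntrk3 and Ngfr, taken by gene symbol from a table of 24015 genes, and all 5 were found. They were measured by strand-specific messenger RNA sequencing of the dissected adult cerebellum in mice of the C57BL/6N substrain aged 140 to 150 days. Of the 4 libraries, 2 came from mice heterozygous for an Arid1b knockout, labelled HT, and 2 from wild type littermates, labelled WT, with 1 male and 1 female in each genotype. ARID1B is a subunit of the BAF chromatin remodelling complex that binds DNA, and the comparison addresses what its loss from 1 allele does to transcription. The labels give neither the deleted part of Arid1b nor the number of animals behind a library, so a p-value here reflects library to library spread, which may be technical.

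Neurotrophins are secreted growth factors that are made as longer precursors and cleaved to mature dimers. Mature forms bind Trk receptor tyrosine kinases, which signal through Ras and MAP kinase, PI3 kinase and phospholipase C gamma to support neuronal survival, dendrite growth and synaptic plasticity, whereas the precursors bind the p75 receptor together with sortilin. In the cerebellum, BDNF acting on TrkB and neurotrophin-3 acting on TrkC are known for roles in granule cell migration, in Purkinje cell dendrites and in synapse formation.

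The total count per library was 20287016 in the HT male, 15950899 in the HT female, 16453759 in the WT male and 20616219 in the WT female. Arid1b itself stood at 52.9 and 55.8 CPM (the count of a gene relative to the total of its library) in the HT libraries, against 69.9 and 71.0 CPM in the WT libraries. Its log2 fold change, HT over WT, was -0.37 ± 0.11 (SE), and its adjusted p over all tested genes was 0.243 (edgeR, quasi-likelihood). Of 15117 tested genes, 3 passed an adjusted p of 0.05, or 0.0198%, and 11.7% had an unadjusted p under 0.05. The WT female stood apart in markers of brainstem monoaminergic and motor neurons, whose summed level was 67.2 CPM there and 224 to 301 CPM in the other libraries.

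In GENCODE M21, Bdnf, Ntrk2 and Ntrk3 are overlapped by annotated antisense genes, and without a stated strand setting their reads cannot be told apart, whereas Ntf3 and Ngfr are overlapped by none.

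None of the 5 genes passed the test of HT against WT. The count was 0 of 5 with edgeR's quasi-likelihood test, with its likelihood ratio test, with DESeq2 and with limma-voom. In the quasi-likelihood test 1 of the 5, Ntrk3, had an unadjusted p under 0.05, and it was lower in HT. Among all tested genes 6.46% were lower in HT with an unadjusted p under 0.05. The unadjusted p of Ntrk3 was 0.0959 in DESeq2 and 0.0624 in edgeR without the sex term. Of the fitted differences, 4 were above 0 and 1 was below, where 51.1% of all tested genes were above 0. Ntrk3 was also the 1 gene whose HT and WT libraries did not overlap. Among all tested genes 44.7% did not overlap, with 22.6% lower in both HT libraries, so 1 of 5 is not more than that background.

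Bdnf, whose product is the main ligand of TrkB, is transcribed from several alternative starts, and a gene count adds up the transcripts of all of them. RefSeq's promoter table on GRCm38.p6 holds 7 start windows for it, and 11 windows in all for Bdnf, Ntf3, Ntrk2 and Ngfr. The 250 bases before each start were searched on both strands for the cAMP response element TGACGTCA, to which CREB binds, and for the variant TCACGTCA, whose reverse complement is TGACGTGA. The element was in 0 of the 11 windows and in 1.55% of all 32817 windows of this length, and the variant was in 1 of the 11, a Bdnf window, and in 0.35% of all windows. That window, chr2:109692186-109692435 on the plus strand, is shown because activity-dependent Bdnf transcription is known to depend on CREB, and Creb1 is among the genes described further on. It is written 5′ to 3′ with the variant in capitals, whose first base lies 38 bases before the start.
Bdnf: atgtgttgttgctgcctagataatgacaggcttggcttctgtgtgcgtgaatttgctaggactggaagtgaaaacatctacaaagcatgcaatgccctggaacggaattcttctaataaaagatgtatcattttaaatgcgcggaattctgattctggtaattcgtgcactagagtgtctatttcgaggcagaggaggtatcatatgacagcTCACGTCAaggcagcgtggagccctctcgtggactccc
A match of letters is a description and not a binding site, and the counts do not separate this start from the others.

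Bdnf had 13.01 CPM in the HT male and 10.8 in the HT female, against 11.7 CPM in the WT male and 7.03 in the WT female. The WT female was lowest, and the WT male lay between the HT libraries, so the genotypes overlapped. The means were 11.9 ± 1.53 CPM in HT and 9.38 ± 3.32 CPM in WT (SD, n = 2 each). The log2 fold change was 0.38 ± 0.21 (SE), with a 95% interval of -0.08 to 0.85 (edgeR quasi-likelihood test, adjusted p = 0.526). The interval holds both no change and a rise. Without the WT female the value was 0.027, and without the WT male it was 0.77, with an adjusted p of 0.00547 in the edgeR fit that then called 2730 genes. The size of the Bdnf difference thus depended on which WT library was kept, and it was 0.22 without the HT male and 0.47 without the HT female.

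Ntf3 encodes neurotrophin-3, the ligand of TrkC, and was the lowest of the 5 genes in CPM. It had 2.27 CPM in the HT male and 3.64 in the HT female, against 2.61 CPM in the WT male and 2.91 in the WT female. Both WT values lay between the HT values, and with 43 to 60 counts per library the counting intervals of all 4 libraries overlapped. The HT male's 46 counts, for example, gave an exact Poisson 95% interval of 1.66 to 3.02 CPM, which covers counting error only. The log2 fold change was 0.07 ± 0.33 (SE), with a 95% interval of -0.66 to 0.80 (edgeR, adjusted p = 0.961). The interval holds no change as well as a fall or a rise of Ntf3 up to these bounds. The fold change was -0.29 without the HT female, 0.40 without the HT male, 0.01 without the WT male and 0.16 without the WT female.

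**Figure D1:**
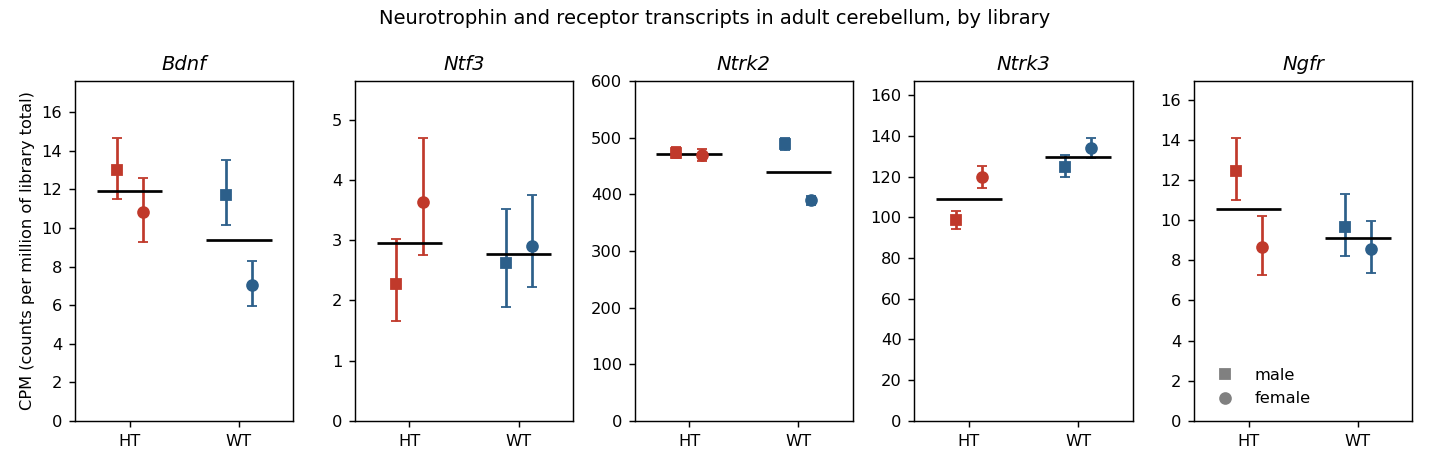
CPM of each gene in each library, HT at left and WT at right in every panel, with squares for males, circles for females, bars for the exact Poisson 95% counting interval and a line for the mean of each genotype; every axis starts at 0. Ntrk3 is the 1 gene with both HT libraries, at 98.4 and 120 CPM, below both WT libraries, at 125 and 134 CPM.

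Ntrk2 encodes TrkB, the receptor of BDNF, and was the highest of the 5 genes both in CPM and per kilobase. It had 474 CPM in the HT male and 470 in the HT female, against 489 CPM in the WT male and 389 in the WT female. The WT female stood below the other 3 libraries, which lay close together. Means were 472 ± 2.89 CPM in HT and 439 ± 70.7 CPM in WT (SD, n = 2 each). The log2 fold change was 0.11 ± 0.11 (SE), with a 95% interval of -0.13 to 0.36 (edgeR, adjusted p = 0.749). Without the WT female the sign turned, to -0.054, and without the WT male the value was 0.28 with an adjusted p of 0.01 in edgeR. It was 0.10 without either HT library. TrkB is made both as a kinase and as truncated forms without the kinase domain, the truncated forms being abundant in astrocytes, and the gene count adds these together.

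Ntrk3 encodes TrkC, the receptor of neurotrophin-3, which granule cells express. It had 98.4 CPM in the HT male and 120 in the HT female, against 125 CPM in the WT male and 134 in the WT female. Both HT libraries were below both WT libraries, with a mean of 109 ± 14.9 CPM in HT and 129 ± 6.42 CPM in WT (SD, n = 2 each). The HT female and the WT male were neighbours, with Poisson 95% intervals of 114 to 125 CPM and 120 to 130 CPM that overlapped. The log2 fold change was -0.25 ± 0.10 (SE), a 0.84-fold level, with a 95% interval of -0.48 to -0.02. Its unadjusted p was 0.0342 and its adjusted p 0.384 (edgeR quasi-likelihood test), so the difference did not pass over all genes. The value was -0.11 without the HT male, -0.40 without the HT female, -0.30 without the WT male (adjusted p = 0.0131 in edgeR) and -0.20 without the WT female.

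Granule cell markers were among the lists that were lower in both HT libraries, as Ntrk3 was. Their summed level was 4944 and 5434 CPM in the HT male and HT female, against 6313 and 7341 CPM in the WT male and WT female, and Ntrk3 put the 4 libraries in this same order. All 15 markers of that list were tested, all 15 had a log2 fold change below 0, with a median of -0.43, and none was at 0 counts in any library. Cbln3, a secreted synapse organiser of granule cells and the most abundant gene of the list, had 1028 and 1145 CPM in HT against 1394 and 1567 CPM in WT. The lower level was not particular to granule cells. Purkinje cell markers, 13 of 14 below 0, summed to 5287 and 4996 CPM in HT against 5807 and 6709 CPM in WT. Endothelial and mural markers, 14 of 14 below 0, summed to 282 and 249 CPM in HT against 298 and 440 CPM in WT. In both of these lists the HT female was lowest, unlike in Ntrk3. The part of any of these cells in the Ntrk3 values was not tested. In bulk tissue fewer cells of a type and less RNA per cell cannot be told apart.

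Ngfr encodes p75, the shared receptor of all neurotrophins, which belongs to the tumour necrosis factor receptor family. It had 12.5 CPM in the HT male and 8.65 in the HT female, against 9.66 CPM in the WT male and 8.59 in the WT female. The HT male stood above the other 3 libraries, and the HT female lay between the WT libraries. Means were 10.6 ± 2.70 CPM in HT and 9.12 ± 0.76 CPM in WT (SD, n = 2 each). The log2 fold change was 0.20 ± 0.21 (SE), with a 95% interval of -0.27 to 0.66 (edgeR, adjusted p = 0.78), and it was -0.073 without the HT male and 0.44 without the HT female. It was 0.31 without the WT male and 0.13 without the WT female.

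Choroid plexus markers were also highest in the HT male. Their sum was 2708 CPM in the HT male and 1562 in the HT female, against 1481 CPM in the WT male and 1473 in the WT female. Of 12 tested choroid plexus markers 10 had a fold change above 0, with a median of 0.48, and none was at 0 counts in any library. Meningeal fibroblast markers, 10 of 12 above 0 with a median of 0.27, summed to 230 CPM in the HT male and 197 in the HT female, against 167 and 195 CPM in the WT libraries. The Schwann cell list, whose cells are a known site of p75, summed to 136 and 132 CPM in HT and 132 and 131 CPM in WT, and of its 8 genes 5 were tested, 3 above and 2 below 0 with a median of 0.11. None of the 8 was at 0 counts in any library. The part of these cells in the Ngfr values was not tested.

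Levels of different genes were compared per kilobase of the longest transcript in GENCODE M21. On this scale Ntrk2 was highest, at 53.9 ± 0.33 CPM per kb in HT and 50.2 ± 8.09 in WT (SD, n = 2 each), and Ntrk3 followed at 5.53 ± 0.76 in HT and 6.57 ± 0.33 in WT. Ngfr had 3.06 ± 0.78 CPM per kb in HT and 2.65 ± 0.22 in WT, Bdnf 2.80 ± 0.36 in HT and 2.20 ± 0.78 in WT, and Ntf3 1.99 ± 0.65 in HT and 1.86 ± 0.14 in WT. Ngfr and Bdnf did not differ beyond their spread in either genotype, and neither did Bdnf and Ntf3. In the HT female Bdnf and Ntf3 were almost equal, at 2.54 and 2.45 CPM per kb. The longest Ntrk3 transcript has 19703 bases, while its median protein-coding transcript has 2726. Per kilobase of the median protein-coding transcript the levels were 155 ± 0.95 in HT and 144 ± 23.2 in WT for Ntrk2, and 40.0 ± 5.48 in HT and 47.5 ± 2.35 in WT for Ntrk3. Both receptor kinases were thus above Ngfr and both ligands with either length, and the size of that gap depended on the length. The level per kilobase of Ntrk2 over that of Ntrk3, with the longest transcripts, was 10.8 and 8.85 in the HT male and HT female, against 8.83 and 6.55 in the WT male and WT female. The ratio was higher in HT within each sex, but the HT female and the WT male were almost equal.

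Sex was taken as a second question from the same fit. None of the 5 genes passed the test of females against males (edgeR, 0 of 5, where 0.0595% of tested genes passed), and 1, Bdnf, had an unadjusted p under 0.05, where 3.82% of all tested genes did. Bdnf was lower in females, with 10.8 and 7.03 CPM in the HT and WT females against 13.01 and 11.7 CPM in the HT and WT males. The lowest of these was the WT female, the library that stood apart in brainstem neuron markers, and its part in the sex difference was not tested. The log2 fold change of Bdnf, female over male, was -0.50 ± 0.21 (SE, edgeR unadjusted p = 0.0393, adjusted p = 0.994). For Ngfr it was -0.35 ± 0.21, for Ntrk2 -0.17 ± 0.11, for Ntrk3 0.19 ± 0.10 and for Ntf3 0.42 ± 0.33 (SE each).

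Within each sex 1 HT library was set against 1 WT library, which has no replicate. The log2 ratio of Bdnf was 0.62 in females and 0.15 in males, and that of Ntrk3 was -0.16 in females and -0.34 in males. Ngfr had 0.01 in females and 0.37 in males. Ntf3, with 0.31 in females and -0.19 in males, and Ntrk2, with 0.27 in females and -0.05 in males, differed in sign, which 41.6% of all tested genes did. The difference between the sexes, tested as the product of sex and genotype, passed for 0 of the 5 genes (edgeR, adjusted p = 0.998 for each), and 0 had an unadjusted p under 0.05 against 3.55% of tested genes.

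**Figure D2:**
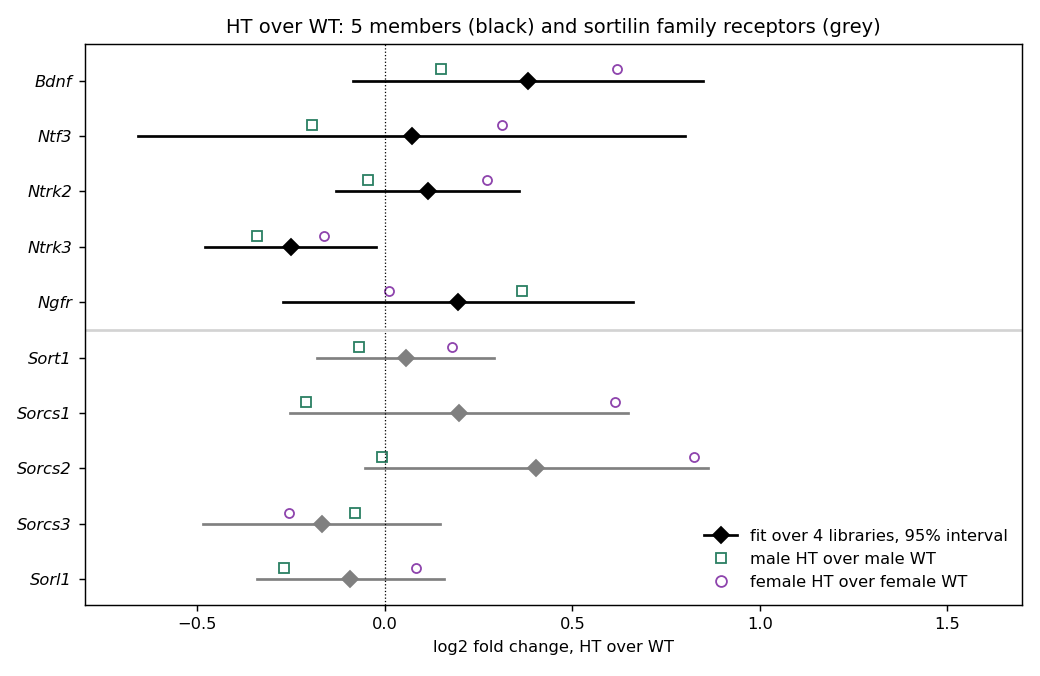
Log2 fold change, HT over WT, with diamonds and lines for the fit over the 4 libraries and its 95% interval, open squares for the male pair and open circles for the female pair, for the 5 genes in black and sortilin family receptors in grey. The interval of Ntrk3 runs from -0.48 to -0.02, and those of Bdnf, Ntf3, Ntrk2 and Ngfr cross 0.

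The list of other neurotrophins and receptors, which includes Ntf5 and the sortilin family, had 7 of 8 genes tested, of which 0 passed (edgeR), with 1 at an unadjusted p under 0.05. The median log2 fold change of the 7 was 0.20, beside 0.01 over all tested genes, with 5 above and 2 below 0. That median was 0.085 without the HT female, 0.54 without the WT male and -0.00373 without the WT female. Ntf5, which encodes the other TrkB ligand, was not tested, with 8 and 2 counts in HT and 5 and 2 counts in WT.

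Sort1 encodes sortilin, the co-receptor of p75 for precursor neurotrophins, and was abundant at 272 and 298 CPM in HT against 286 and 264 CPM in WT (log2 fold change 0.06 ± 0.11, SE). Sorl1, a related sorting receptor, had -0.09 ± 0.11 (SE), and Sorcs3 had -0.17 ± 0.14 (SE). Sorcs2, which also binds p75, had 26.5 and 28.2 CPM in HT against 26.6 and 15.9 CPM in WT, and Sorcs1 27.7 and 30.6 CPM in HT against 32.1 and 20.0 CPM in WT. In both the WT female was lowest, as for Bdnf and Ntrk2, and the other 3 libraries were close to each other.

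The wider pathway was described by 7 lists, the one above included, with 113 genes of which 107 were tested. None passed over all genes in edgeR's quasi-likelihood test or in limma-voom, 2 passed in DESeq2 and 2 in the likelihood ratio test, and 17 had an unadjusted p under 0.05, 8 higher and 9 lower in HT. These 17 are 15.9% of the tested pathway genes, beside 11.7% of all tested genes, of which 5.22% were higher and 6.46% lower. Both HT libraries were above both WT libraries for 21 of the 107 genes and below them for 26, beside 22.1% and 22.6% of all tested genes. Over the whole pathway 53 fold changes were above 0 and 54 below.

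Among processing and release genes 12 of 16 were tested, with 5 above and 7 below 0 and a median of -0.09, which was -0.14 without the HT female and 0.00647 without the WT male. Pcsk1, a prohormone convertase of secretory granules, had 18.9 and 20.1 CPM in HT against 15.01 and 7.08 CPM in WT, a log2 fold change of 0.90 ± 0.29 (SE, edgeR adjusted p = 0.313). Pcsk2, a second convertase, had 0.28 ± 0.14 (SE). Cadps2, a secretory granule protein known to promote release of BDNF and neurotrophin-3 from granule cells, had 191 and 219 CPM in HT against 232 and 235 CPM in WT, or -0.19 ± 0.11 (SE), with adjusted p = 0.476 for Pcsk2 and 0.52 for Cadps2 in edgeR. Both HT libraries were above both WT libraries in Pcsk1 and below them in Cadps2, and Pcsk2 was at 168 CPM in both the HT male and the WT male.

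The 37 Trk signalling genes were split, 18 above and 19 below 0 with a median of -0.00291 that was 0.011 without the HT male, -0.017 without the HT female, 0.031 without the WT male and 0.00612 without the WT female. The smallest p were those of Rps6ka2, a ribosomal S6 kinase downstream of MAP kinase (0.35 ± 0.14, SE), Shc3, a neuronal Trk adaptor (0.65 ± 0.29, SE), and Hras, a Ras GTPase (0.23 ± 0.11, SE), and 0 passed (edgeR, 1 at an unadjusted p under 0.05). Of the 10 restraint genes 5 were above and 5 below 0, with a median of -0.00417, which was -0.062 without the HT male, -0.03 without the HT female, 0.073 without the WT male and -0.20 without the WT female. Nedd4l, a ubiquitin ligase of membrane proteins, had 73.9 and 79.5 CPM in HT against 95.2 and 92.3 CPM in WT, or -0.29 ± 0.11 (SE), and Spred1, an inhibitor of Ras signalling, had -0.26 ± 0.11 (SE). Their adjusted p were 0.332 and 0.372 in edgeR, and Spry4, a further inhibitor, had 0.34 ± 0.24 (SE).

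Partners and adaptors of p75 were 11 above and 3 below 0 of 14, with a median of 0.04. Lingo1, a p75 co-receptor in myelin signalling, had 71.3 and 74.3 CPM in HT against 58.2 and 49.5 CPM in WT, a log2 fold change of 0.44 ± 0.12 (SE, edgeR adjusted p = 0.207). Maged1, an adaptor that binds the p75 intracellular domain, had 0.25 ± 0.10 (SE, adjusted p = 0.373 in edgeR). Rtn4r, the Nogo receptor that pairs with p75, had -0.28 ± 0.13 (SE), with 31.2 and 40.5 CPM in HT against 38.8 and 48.2 CPM in WT. The co-receptors Lingo1 and Rtn4r thus had differences of opposite sign, and neither passed.

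Of the 16 regulators of Bdnf transcription 5 were above and 11 below 0, with a median of -0.12, and 5 of those below 0 had an unadjusted p under 0.05, beside 6.46% of all tested genes. The median was -0.02 without the WT male. Arnt2, a transcription factor that partners NPAS4, was the 1 gene above 0 at an unadjusted p under 0.05, with 215 and 217 CPM in HT against 202 and 149 CPM in WT (0.32 ± 0.12, SE, edgeR adjusted p = 0.354). Camk4, a calcium-dependent kinase that acts on CREB and is abundant in granule cells, had 297 and 325 CPM in HT against 477 and 461 CPM in WT, a log2 fold change of -0.59 ± 0.10 (SE, edgeR adjusted p = 0.13, DESeq2 adjusted p = 0.0053). Mef2a, an activity-regulated transcription factor, had 120 and 122 CPM in HT against 154 and 153 CPM in WT (-0.34 ± 0.10, SE). Creb1, which encodes CREB, had 47.1 and 48.5 CPM in HT against 62.4 and 58.6 CPM in WT (-0.34 ± 0.12, SE), with adjusted p of 0.238 for Mef2a and 0.306 for Creb1 in edgeR. Of the 16 regulators 5 were lower and 2 higher in both HT libraries, beside 22.6% and 22.1% of all tested genes. Camk4, Mef2a and Creb1 are among the 5, but they were named for the smallest p of the list, which favours such a separation. The granule cell markers, with a median of -0.43, were lower in the same 2 HT libraries. So were the summed Purkinje cell markers and the summed endothelial and mural markers, with medians of -0.32 and -0.47. The part of these cells in the values of these 3 genes was not tested.

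Neurotrophin-responsive genes went both ways, with 4 above and 7 below 0 of 11 tested and a median of -0.08. The median was -0.25 without the HT male, 0.066 without the HT female, -0.026 without the WT male and -0.084 without the WT female. Its sign thus turned only without the HT female. Vgf, a secreted granule peptide precursor that neurotrophins induce, had 120 and 112 CPM in HT against 80.7 and 48.8 CPM in WT, a log2 fold change of 0.88 ± 0.15 (SE, edgeR adjusted p = 0.136, DESeq2 adjusted p = 0.00407). Arc, an immediate early gene that acts at synapses, had 49.0 and 50.2 CPM in HT against 39.7 and 35.6 CPM in WT (0.40 ± 0.13, SE). Fos, an immediate early transcription factor, had 15.9 and 10.1 CPM in HT against 20.6 and 21.2 CPM in WT (-0.71 ± 0.20, SE). Arc and Fos therefore had opposite signs, with adjusted p of 0.267 and 0.209 in edgeR.

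**Figure D3:**
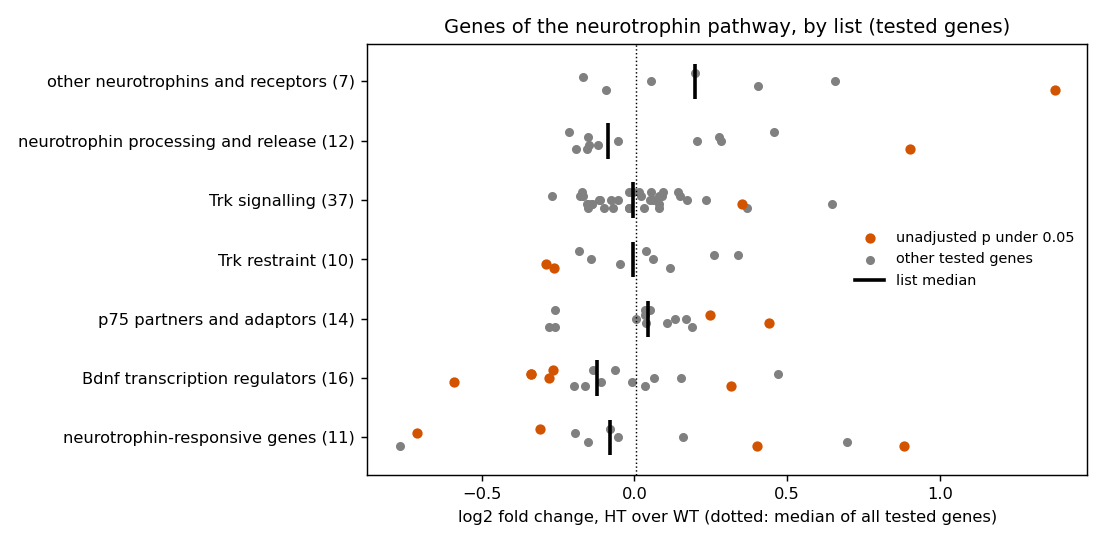
Log2 fold change, HT over WT, of the tested genes of each pathway list, whose number is in parentheses, with orange points at an unadjusted p under 0.05, black bars at list medians and a dotted line at the median of all tested genes, 0.01. List medians lie between -0.12 and 0.20, and among the genes named above Pcsk1 at 0.90 and Vgf at 0.88 lie farthest to the right.

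Genes with the most similar profile over the 4 libraries were found among 14233 genes with a mean of at least 1 CPM, by the root mean square difference of centred log2(CPM + 0.5) values. For Bdnf these were Slc36a4, Susd1 and Hnmt, at differences of 0.028, 0.0283 and 0.03, and 105 genes were within 0.1. For Ntrk3 they included Fam193b and Malt1, at 0.0121 and 0.0134, with 1191 genes within 0.1. For Ntrk2 they were 4933402D24Rik, Mphosph8 and Phactr1, at 0.00867, 0.00903 and 0.0103, with 2018 genes within 0.1. For Ntf3 they were 4933439C10Rik, Slc26a8 and Chkb, at 0.00584, 0.043 and 0.0494, and for Ngfr Gm16861, Fabp7 and St3gal6, at 0.0312, 0.0336 and 0.0373. With 4 libraries many genes match a profile by their shape alone, so these names are a description.

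The low WT female values of Bdnf and Ntrk2 stood beside its low brainstem neuron markers. All 12 of these markers had a log2 fold change above 0, with a median of 1.17. Tph2, the serotonin synthesis enzyme of the brain, had 52.1 and 49.5 CPM in the HT male and HT female, against 52.2 CPM in the WT male and 5.63 in the WT female. Slc6a3, the dopamine transporter, had 34.6 and 23.8 CPM in HT against 15.01 CPM in the WT male and 0 counts in the WT female, where 3 counts would be 0.146 CPM. It was the 1 marker of the list at 0 in any library. The part of such tissue in the Bdnf and Ntrk2 values was not tested. Without the WT female the log2 fold changes were 0.027 for Bdnf, -0.054 for Ntrk2 and -0.20 for Ntrk3. Of 14 astrocyte and Bergmann glia markers 5 were above 0, with a median of -0.09, and none was at 0 counts in any library. They summed to 6081 and 5764 CPM in HT against 5806 and 6923 CPM in WT, highest in the WT female. The markers were not alike. Aldoc, the most abundant, was highest in the WT female at 2706 CPM, while Gjb6, at 61.1 CPM, and Sox9, at 24.6 CPM, were lowest there. The part of astrocytes in the Ntrk2 values was not tested. Among the named pathway genes, Pcsk1, Pcsk2, Shc3, Rps6ka2, Sort1, Sorcs1, Sorcs2, Lingo1, Maged1, Spry4, Arnt2, Arc and Vgf were lowest in the WT female. Bdnf and Ntrk2 were lowest there too. For Maged1 the WT male was almost equal, at 546 CPM against 544 CPM in the WT female. All but Sort1, Sorcs1, Sorcs2 and Arnt2 were named for a small p in their list, and Arnt2 after its values were seen. Such a choice, among genes with a fold change above 0, favours a low WT value. The share of all tested genes that were lowest in that library was not counted, so these names are a description. Of the other marker lists, 13 of 14 oligodendrocyte markers, 1 of 14 Purkinje cell markers and 0 of 14 endothelial and mural markers had a fold change above 0, with medians of 0.15, -0.32 and -0.47.

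**Figure D4:**
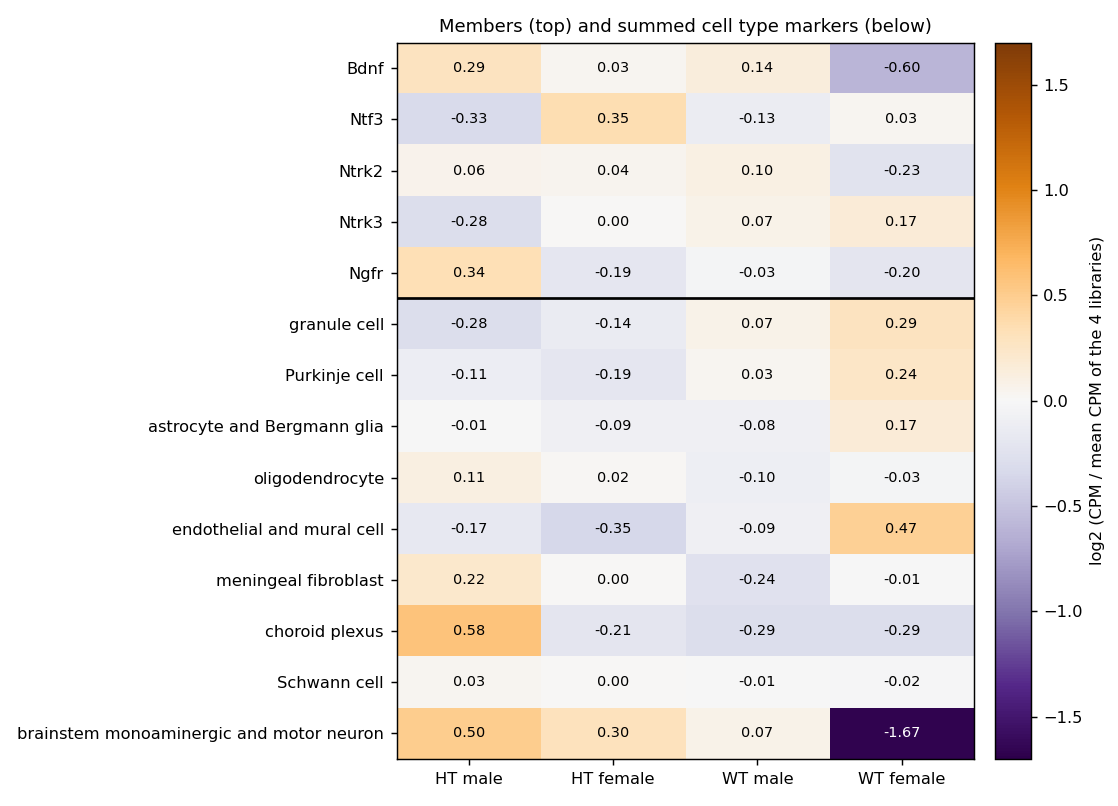
Log2 of the CPM in each library over the mean CPM of the 4 libraries, HT libraries at left, for the 5 genes above the line and for summed markers of 9 cell types below it, with the value printed in each cell. The WT female is at -0.60 for Bdnf and -1.67 for the brainstem neuron markers, and the HT male is at 0.34 for Ngfr and 0.58 for the choroid plexus markers.

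**Figure D5:**
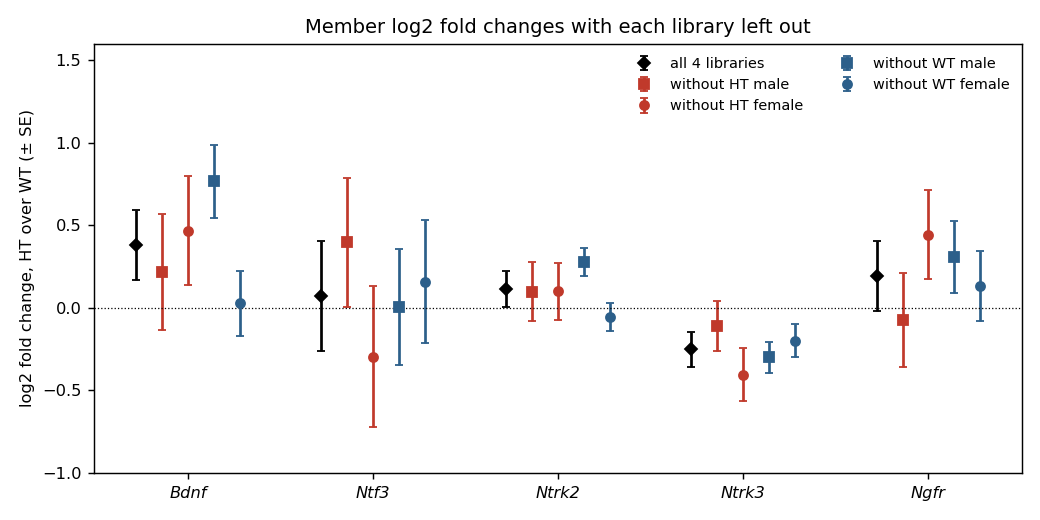
Log2 fold change, HT over WT, with its SE, for each gene with all 4 libraries (black diamond) and with each library left out (red for HT, blue for WT, squares for males and circles for females). Ntrk3 is below 0 in all 5 fits, from -0.40 to -0.11, Bdnf runs from 0.027 to 0.77, and Ntf3, Ntrk2 and Ngfr each cross 0 once.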

How the data were processed

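The 4 stranded messenger RNA libraries of mouse cerebellum were sequenced as single-end reads of 100 bases in 1 lane, per the labels' protocols. The authors deposited raw counts, 1 column per library, with genes given by symbol. Tools that the submitters' processing notes name are STAR, featureCounts, FastQC and edgeR, with mm9 as the build and no versions. Whether counting used strand was not given in the sources used here.

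Genes kept by filterByExpr numbered 15117 and held 99.9% of counts. A robust quasi-likelihood fit (edgeR 4.0.16, R 4.3.3) with TMM scaling had terms for genotype and sex, leaving 1 residual degree of freedom. P-values are two-sided, with Benjamini-Hochberg adjustment over every gene tested. SE is the log2 fold change over the square root of F, and 95% intervals use the moderated degrees of freedom. Ratios within a sex, 1 library against 1, used a prior count of 2, without a test. The product of sex and genotype was tested with genotype as the other term.

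The members, lists and rule for named genes were chosen with earlier results of these data known. Named were the 5 members, Arid1b, the listed other neurotrophins and receptors, up to 3 genes of smallest p in the other lists, the leading markers, and the 3 nearest profiles of each member. Slc6a3 and Arnt2 were named after their values were seen, and some genes of the rule are not reported here. Alternatives were DESeq2 1.42.0, limma 3.58.1 (voom), edgeR's likelihood ratio test, other scalings and filters, no sex term, and each library left out, with genotype as the only term, which leaves sex unbalanced. Lengths and promoters come from GENCODE M21 and RefSeq on GRCm38, and no coordinate was converted between builds. RefSeq promoters matched 4 of 5 members. Scripts were tested on simulated data; when the simulated spread varied between genes, 1 residual degree of freedom let more false calls through than the threshold allows.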

Additional observations from a re-analysis of the deposited data

How the results depend on the processing

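Each of the 5 genes was tested under 12 alternatives. Over the 8 that kept all libraries the log2 fold changes ran from 0.36 to 0.38 for Bdnf, 0.06 to 0.09 for Ntf3, 0.10 to 0.12 for Ntrk2, about -0.25 for Ntrk3 and 0.19 to 0.22 for Ngfr, with 0 of 5 called in each. With a library left out they ran from 0.027 to 0.77 for Bdnf, -0.29 to 0.40 for Ntf3, -0.054 to 0.28 for Ntrk2, -0.40 to -0.11 for Ntrk3 and -0.073 to 0.44 for Ngfr. The sign turned for Ntf3 without the HT female (-0.29), for Ntrk2 without the WT female (-0.054) and for Ngfr without the HT male (-0.073). Calls appeared in the fit without the WT male, for Bdnf (0.77), Ntrk2 (0.28) and Ntrk3 (-0.30). That fit called 2730 genes, with the 2 HT libraries alone setting the spread and the lone WT library assumed to vary like them.

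The count over all genes, 3, was 34 with DESeq2, 166 with the likelihood ratio test, 7 with DESeq2's size factors, 13 with library totals, 553 with no filter, 0 with 1 CPM in at least 2 libraries and 0 without the sex term (edgeR, with 1679 and 1693 genes at an unadjusted p under 0.05), and 0 to 2730 with a library left out. The pathway count, 0, was 2 with DESeq2 and 2 with the likelihood ratio test (Camk4 and Vgf), 1 with library totals (Camk4), 5 with no filter (Fos, Pcsk1, Camk4, Vgf and Lingo1), and 0 to 31 with a library left out. The cause was not tested. The sex effects kept their sign, with 0 called, under all 7 alternatives run for them. No paired analysis was possible because the labels carry no replicate numbers, beyond the sex term, which sets each HT library against the WT library of its own sex. With 2 libraries per genotype, intervals stay wide for Bdnf, Ntf3 and Ngfr, and Ntf3 is further limited by few counts.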
